A study of Columba livia with 19 samples.

Results

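The collar of a growing feather was compared between wild-type pigeons of 2 collections, with no colour mutation on either side. The 9 birds compared, of 19 rock pigeons (Columba livia) in the series, were all those labelled homozygous wild type: 5 of batch 2, collected in 2020 (birds 00, 20, 21, 23 and 24), and 4 of batch 1, sequenced in 2017 (birds 1, 2, 3 and 4). The wild-type carrier of the recessive red allele e1 (bird 22, batch 2) was left out of this comparison. The 10 birds outside it were read beside the results: the carrier, 3 recessive red birds homozygous for e1 (6, 11 and 12) and 3 homozygous for e2 (5, 7 and 14) of 2020, and 3 recessive red e1 homozygotes (1, 3 and 4) of 2017. Both recessive red alleles are deletions of regulatory sequence near SOX10, the gene of a transcription factor of pigment cells. All birds had secondary flight feathers plucked and regrown for 9 to 10 days, and polyadenylated RNA was taken from the lowest 4 to 5 mm of the new feather once the pulp had been discarded. Below, a collection means a batch, and 2017 is the year in which batch 1 was sequenced. The birds used, their sampling and their sequencing change together with the year and cannot be told apart. The labels give neither sex nor age, so whether these differed between the years could not be read from them.

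The collar is the ring of dividing epidermis at the base of a feather follicle. Its keratinocytes multiply, form the barb ridges and then fill with keratins as they move up, so that the sampled ring holds cells at successive stages of maturation. Melanocytes sit in the same ring and pass pigment to the keratinocytes. In a bulk sample such as this one, fewer cells of a kind and less RNA per cell cannot be told apart.

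The counts are headed by Cliv2.1 gene identifiers, of which 0 were found among the 22830 pigeon genes of the annotation table used here. Genes are therefore given by identifier, without a role or position, and the 2 genes that lead in each direction are named. For the same reason the cell type of the collar could not be checked against marker genes. Levels are in CPM, the count of a gene relative to the library total, which was scaled by TMM (a factor that centres the bulk of genes) over all 19 birds. They are not divided by gene length. A gene was called changed at a Benjamini-Hochberg adjusted p under 0.05 in edgeR's quasi-likelihood test, with no minimum fold. Log2 fold changes are 2020 over 2017.

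The wild-type collars of 2020 and 2017 differed across a large share of the transcriptome. Of 12573 genes tested, 3987 (31.7%) were called, 1884 higher in 2020 (15%) and 2103 lower (16.7%; edgeR). Most of the changes were small. The higher genes had a median log2 fold change of 0.58 and the lower genes one of -0.62, and 51.8% of the higher and 44.8% of the lower genes changed less than 1.5-fold. A change of at least 2-fold was reached by 222 higher and 307 lower genes, and one of at least 4-fold by 27 higher and 5 lower genes. With any 1 of the 9 birds left out the total of 3987 lay between 3069 and 3805. The numbers in each direction are relative to the scaling. With TMM the median log2 fold change of all tested genes was 0.00, while library totals without a scaling factor moved it to 0.17 and gave 3244 higher and 1251 lower genes.

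**Figure D1:**
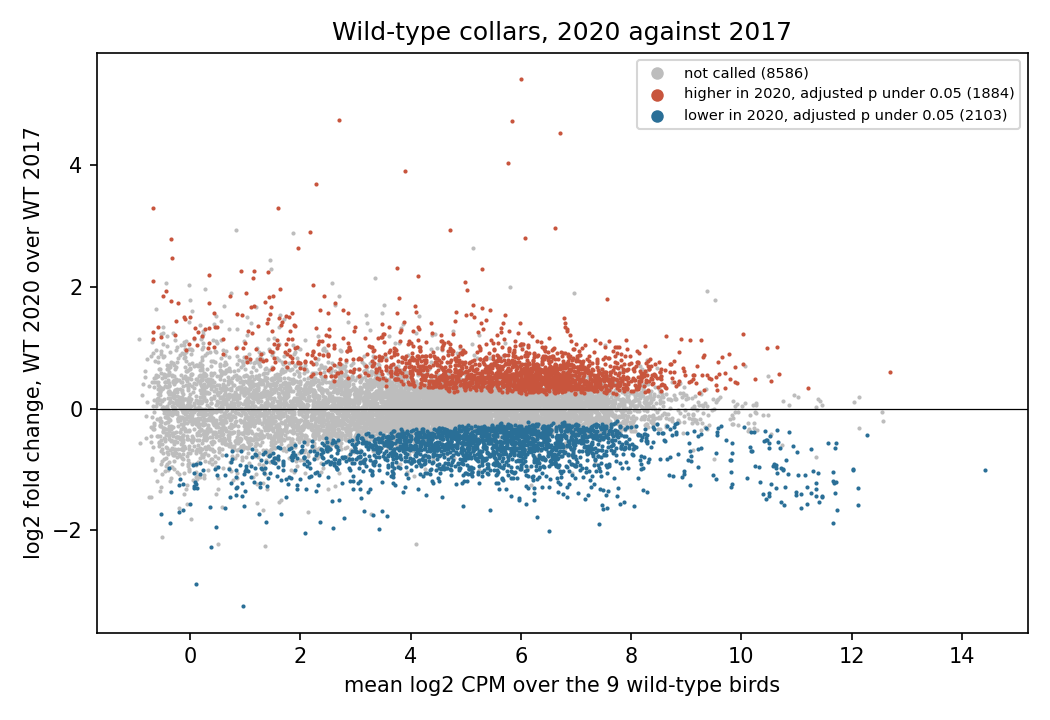
Log2 fold change of each tested gene, wild type of 2020 over wild type of 2017, against its mean log2 CPM over the 9 birds. Red points are the 1884 genes called higher in 2020, blue points the 2103 called lower and grey points the genes not called; most of the points at the far right lie below 0.

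The separation was also seen bird by bird. In 1536 of the tested genes (12.2%) every bird of 2020 lay above every bird of 2017, and in 1848 (14.7%) every bird lay below. Such a gap was shown by 1421 of the 1884 higher and by 1707 of the 2103 lower genes that were called. The median absolute log2 difference between birds was 0.21 over the 10 pairs within 2020 (range 0.17 to 0.28), 0.26 over the 6 pairs within 2017 (range 0.20 to 0.29) and 0.39 over the 20 pairs that cross the collections (range 0.29 to 0.50). The least different crossing pair was therefore only just beyond the most different pair within 2017. By Spearman correlation the pairs overlapped, at 0.943 to 0.979 across the collections, 0.973 to 0.988 within 2020 and 0.976 to 0.989 within 2017. On the first principal component of the 9 birds, which held 38.5% of the variance, the birds of 2020 lay between 18.1 and 39.4 and those of 2017 between -42.5 and -22.8. The spread among birds was of like size in the collections, with a biological coefficient of variation of 20.5% in 2020 (18 to 21.4% with a bird left out) and 21.4% in 2017 (at most 23.1%).

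How often a gene was called depended on its level. In decile 1, the genes with the fewest reads, with a median of 1.05 CPM, 7.80% were called and the median standard error of a log2 fold change was 0.38. In decile 10, the genes with the most reads, with a median of 239 CPM, 51.3% were called and the median standard error was 0.11. Calls were thus most frequent where the error was smallest, and a shift in rare transcripts was less detectable at this depth. Direction varied with level as well: in decile 3, 6.28% of the genes were higher and 12.6% lower, and in decile 9, 27.2% were higher and 19.7% lower.

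**Figure D2:**
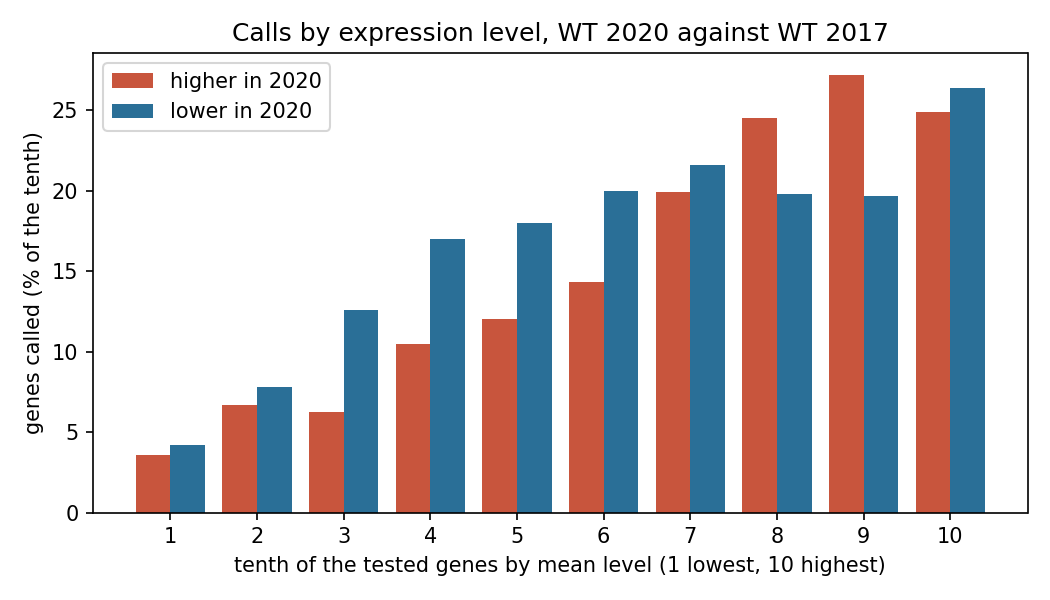
Share of genes called higher (red) and lower (blue) in wild type of 2020 than of 2017, in % of each decile of the tested genes, ordered by mean level. Called genes made up 7.80% of decile 1 and 51.3% of decile 10, and lower genes outnumbered higher ones in deciles 1 to 7 and 10.

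Of the 100 genes with the highest mean level, 69 were lower in 2020, 7 were higher and 24 were not called (edgeR), against 16.7% lower and 15% higher over all tested genes. The median log2 fold change over the 100 genes was -0.88, and 41 of the 69 lower genes fell at least 2-fold. The share of lower genes depended on how many genes were taken. Of the 10 genes with the most reads 4 were lower, 1 was higher and 5 were not called, and of the first 500, 153 were lower, 112 were higher and 235 were not called, with a median log2 fold change of -0.03. In 64 of the 69, no bird of 2020 reached the lowest bird of 2017. The same held for 81.2% of all called lower genes and for 14.7% of all tested genes. Of these 69 genes, 68 were also called lower with DESeq2 size factors, 69 with upper-quartile scaling and 61 without a scaling factor. Without a scaling factor 14 of the 100 genes were called higher.

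The 69 genes together took 11.2, 13.0, 10.8, 13.3 and 13.8% of the counts in the 2020 birds 00, 20, 21, 23 and 24, against 22.1, 25.5, 21.9 and 23.1% in the 2017 birds 1, 2, 3 and 4. Each collection stayed within a few percentage points, with a wide gap between them. The group means were 12.4 ± 1.35% (SD, n = 5) in 2020 and 23.2 ± 1.66% (SD, n = 4) in 2017. These genes were picked by the comparison of the same birds, so the shares describe its size and are no test. The 7 higher genes took 2.04 ± 0.203% in 2020 and 1.19 ± 0.151% in 2017. The 24 uncalled genes took 6.22 ± 0.279% in 2020 and 5.72 ± 0.327% in 2017.

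The shares of all called genes were read in the same way. These genes too were picked by the comparison of the same birds, so the direction of their shares is no test. The 2103 lower genes held 25.9 ± 1.94% of the counts in 2020 (SD, n = 5) and 41.7 ± 2.33% in 2017 (SD, n = 4). The 1884 higher genes held 23.8 ± 1.24% in 2020 and 14.2 ± 1.14% in 2017. The lower genes thus gave up more reads than the higher called genes gained.

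Measures of the libraries that need no list of genes moved in the same way. The 100 genes with the most reads in each bird took 21.4 ± 0.978% of the counts in 2020 (SD, n = 5) and 30.4 ± 1.56% in 2017 (SD, n = 4), and the 10 leading genes took 6.23 ± 0.228% in 2020 and 8.15 ± 0.256% in 2017. The TMM factor was 1.04 ± 0.0200 in 2020 and 0.923 ± 0.0455 in 2017. For each of these 3 measures an exact permutation test gave p = 0.00794, the smallest that the possible groupings of 5 and 4 birds allow (2-sided, adjusted p = 0.0159 over 6 measures). The 10 leading genes are among the 100, and the TMM factor comes from the same counts, so these are not 3 independent results. Total counts ranged from 14895906 to 17823794 in 2020 and from 15090167 to 22014628 in 2017, and their means did not differ beyond the spread between birds (exact permutation test, p = 0.0952, adjusted p = 0.143). Without the 2017 bird 2, which had the lowest total of its group, they did (exact permutation test, adjusted p = 0.0268), with a difference in mean of -4329054 counts (2020 minus 2017). Leaving out that bird widens the gap by construction. With any other 1 of the 9 birds left out the adjusted p was 0.171 to 0.295 (exact permutation test). In the 9 birds no difference passed for the number of genes with a count, 14213 ± 83.7 in 2020 and 14226 ± 63.2 in 2017 (exact permutation test, p = 0.802, adjusted p = 0.802), nor that number after thinning all birds to the lowest total (exact permutation test, p = 0.119, adjusted p = 0.143). Thinned in that way, the 9 birds gave 3975 called genes. Only 1 gene was seen in all 5 birds of 2020 and at 0 in all 4 of 2017, with 7 counts in total, and 0 genes showed the reverse.

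Among genes whose groups did not overlap and whose mean log2 CPM was at least 1, A306_00002302 rose most. It stood at 222, 146, 104, 352 and 96.8 CPM in the 2020 birds 00, 20, 21, 23 and 24, against 6.84, 7.43, 7.0 and 10.8 CPM in the 2017 birds 1, 2, 3 and 4. Every bird of 2020 was far above every bird of 2017, and birds 23 and 00 were the highest. The log2 fold change was 4.52 ± 0.42 (SE; edgeR, adjusted p = 8.86e-05). The counts behind it were 1663 to 6215 per bird in 2020 and 99 to 200 in 2017. High levels were also found in the recessive red birds of 2020, with 191, 184 and 381 CPM in e1 birds 6, 11 and 12 and 266, 406 and 249 CPM in e2 birds 5, 7 and 14. The carrier was at 96.6 CPM, while the e1 birds of 2017 were at 7.38, 7.51 and 8.72 CPM.

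A306_00001292 had the most reads of the called, non-overlapping higher genes. It stood at 2654, 2592, 2620, 2840 and 2487 CPM in the 2020 birds 00, 20, 21, 23 and 24, against 1969, 2131, 2270 and 1981 CPM in the 2017 birds 1, 2, 3 and 4. The groups were close but did not overlap. The log2 fold change was 0.34 ± 0.09 (SE; edgeR, adjusted p = 0.0183), and the adjusted p was 0.0831 with the dispersion taken from all 19 birds, which ends the call. In the other birds of 2020 it ranged from 2393 to 4267 CPM, and in the e1 birds of 2017 from 1907 to 2336 CPM.

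A306_00014629 fell most by the same rule. It stood at 1.21, 1.98, 1.56, 2.1 and 1.85 CPM in the 2020 birds 00, 20, 21, 23 and 24, against 9.89, 7.73, 6.22 and 5.12 CPM in the 2017 birds 1, 2, 3 and 4. It was a rare transcript in every bird, with 20 to 37 counts per bird in 2020 and 95 to 188 in 2017. The log2 fold change was -2.05 ± 0.25 (SE; edgeR, adjusted p = 2.58e-04). The other 7 birds of 2020 ranged from 1.05 to 2.34 CPM and the e1 birds of 2017 from 3.86 to 8.72 CPM, again without overlap.

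A306_00000962 had the most reads of all tested genes. It stood at 13344, 16574, 12858, 16784 and 17093 CPM in the 2020 birds 00, 20, 21, 23 and 24, against 29376, 33251, 29315 and 32170 CPM in the 2017 birds 1, 2, 3 and 4. The log2 fold change was -1.02 ± 0.13 (SE; edgeR, adjusted p = 3.55e-04). Unlike the other 3 named genes, its level did not follow the collection in every bird outside the comparison. The carrier was at 16013 CPM and e1 birds 11 and 12 and e2 bird 7 of 2020 were at 14490, 11105 and 11935 CPM, but e1 bird 6 was at 30180 CPM and e2 bird 5 at 29869 CPM. E2 bird 14 lay between these levels, at 18261 CPM. The e1 birds of 2017 ranged from 22062 to 29853 CPM.

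**Figure D3:**
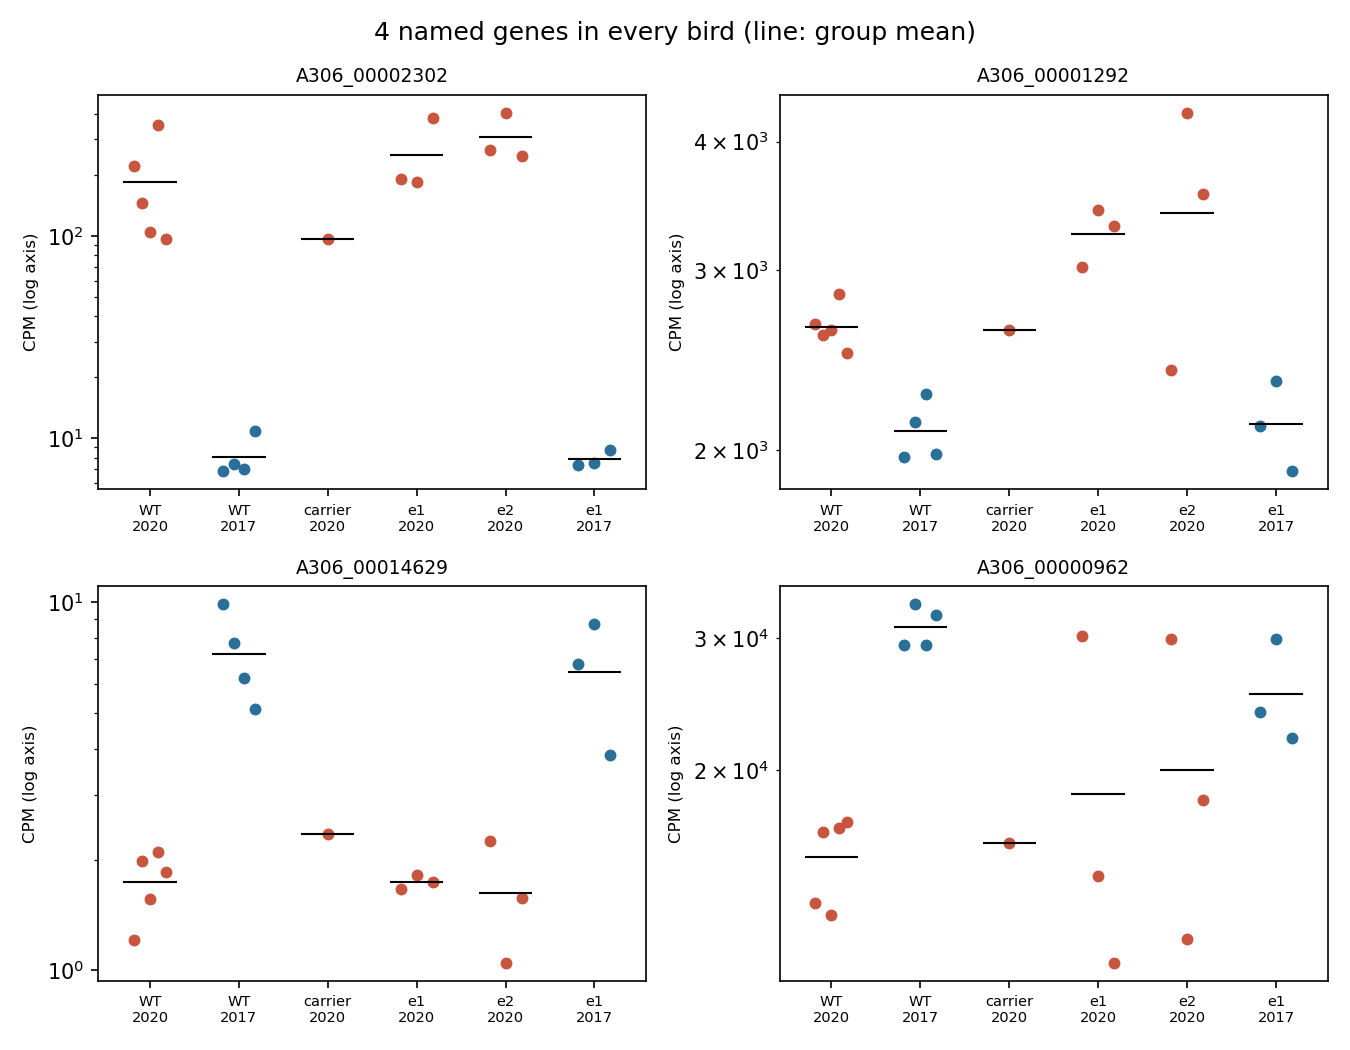
CPM of the 4 named genes in each bird, on log axes, by group; red points are birds of 2020, blue points birds of 2017 and black lines group means. The years do not overlap for A306_00002302, A306_00001292 and A306_00014629, whereas for A306_00000962 one e1 and one e2 bird of 2020 lie with the birds of 2017.

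The 4 named genes were picked for groups that do not overlap, so the largest fitted folds were also read without that rule. Of the 20 higher genes with the largest fold change, 12 had groups that overlapped, whereas 75.4% of all called higher genes had no overlap. In those 20 genes the highest bird was a median of 14.8 times the lowest in 2020 and 3.90 times in 2017. Bird 00 was the highest of the 5 in 11 of the 20 genes, and birds 20 and 21 were each the lowest in 8. Of the 20 lower genes with the largest fold change 8 overlapped, whereas 81.2% of all called lower genes had no overlap. Here the highest bird was a median of 3.28 times the lowest in 2020 and 3.43 times in 2017. Some of the strongest increases therefore rested on part of the 2020 birds. Ranking by fold change favours genes with very high single birds, so this describes the 20 genes and is no test.

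A306_00007909, named outside the rule because recessive red collars nearly lack it, did not pass the test between the collections. It stood at 2827, 7783, 7917, 5344 and 5058 CPM in the 2020 birds 00, 20, 21, 23 and 24, against 7315, 5738, 5520 and 8035 CPM in the 2017 birds 1, 2, 3 and 4. The groups overlapped widely, and the log2 fold change was -0.20 ± 0.26 (SE; edgeR, adjusted p = 0.588). The 9 recessive red birds of both years ranged from 0.965 to 22.6 CPM, and the carrier was at 5089 CPM, within the wild-type range.

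The next question was how the 10 birds outside the comparison stand on the genes it called. For each bird, the median of log2 CPM minus the mean of the 2017 wild-type birds was taken over the 1884 higher and the 2103 lower genes. The wild-type birds that defined the lists stood at 0.50 to 0.68 (higher) and -0.69 to -0.54 (lower) in 2020, and at -0.12 to 0.09 and -0.08 to 0.12 in 2017. The carrier, collected in 2020, stood at 0.52 and -0.59, with the other birds of that year.

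The e1 birds of 2017 (birds 1, 3 and 4) stood at 0.09, -0.06 and 0.02 for the higher genes. For the lower genes they stood at -0.10, 0.05 and -0.07. These medians lay within or next to the range of wild type of 2017. The recessive red birds of 2020 did not lie together. E1 birds 11 and 12 and e2 bird 7 stood at 0.53, 0.51 and 0.62 for the higher and at -0.54, -0.59 and -0.69 for the lower genes, within or next to the range of wild type of 2020. E2 bird 14 stood at 0.39 and -0.41, e1 bird 6 at 0.31 and -0.27, and e2 bird 5 at 0.21 and -0.22, between the years.

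The genes were also counted singly. The share of the higher genes that lay on the 2020 side of the midpoint between the wild-type means was 95.4% in the carrier, 86.8% in e2 bird 7, 80.9% in e1 bird 11, 78.3% in e1 bird 12, 64.9% in e2 bird 14, 51.6% in e1 bird 6 and 39.8% in e2 bird 5. It was 87.3 to 98.7% in the wild-type birds of 2020 and 2.28 to 7.86% in those of 2017. In the e1 birds of 2017 it was 5.94 to 20.5%. For the lower genes the same birds of 2020 had 94.1, 88.8, 85.3, 85.0, 64.7, 45.1 and 37.6%. The wild-type birds had 93.3 to 98.9% in 2020 and 2.57 to 8.75% in 2017. The e1 birds of 2017 had 6.80 to 18.5%. By this count the carrier lay within the range of wild type of 2020 for both lists. E2 bird 7 and e1 birds 11 and 12 lay below it for both lists, although their medians were within or close to the wild-type range. Birds 14, 6 and 5 again came last. In 2017, e1 birds 1 and 4 lay above the range of wild type of that year for both lists. They had 20.5 and 13.1% for the higher genes and 18.5 and 17.1% for the lower genes. E1 bird 3 of 2017 lay within that range, at 5.94 and 6.80%. The wild-type birds chose the genes and set the midpoints, which widens the gap between their own years, in the medians above as well. A lower position of a 2020 bird outside the comparison is therefore no test of a smaller shift. The same holds for a higher position of an e1 bird of 2017.

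The composition of the libraries moved with these positions. The 100 genes with the most reads took 26.4% of the counts in e1 bird 6, 27.2% in e2 bird 5 and 22.7% in e2 bird 14, and 20.2 to 21.1% in the carrier, e2 bird 7 and e1 birds 11 and 12. In the e1 birds of 2017 they took 27.2 to 28.7%, and wild type of 2020 reached 22.4% in bird 23. The 10 leading genes took 7.10% in e1 bird 6 and 7.46% in e2 bird 5. In e2 bird 14 they took 5.74%, within the 5.43 to 6.04% of the carrier, e2 bird 7 and e1 birds 11 and 12. Of the 100 genes with the highest mean level 69 were in the lower list, so shares and positions rest in part on the same counts. Total counts were 17271989, 18094465 and 19299570 in birds 6, 5 and 14, and 13559606 to 15951876 in the other 4 birds of 2020 outside the comparison. Wild-type bird 2 of 2017 had only 15090167, and wild-type birds 23 and 24 of 2020 had 17305314 and 17823794. The part of composition and depth in the positions was not tested.

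**Figure D4:**
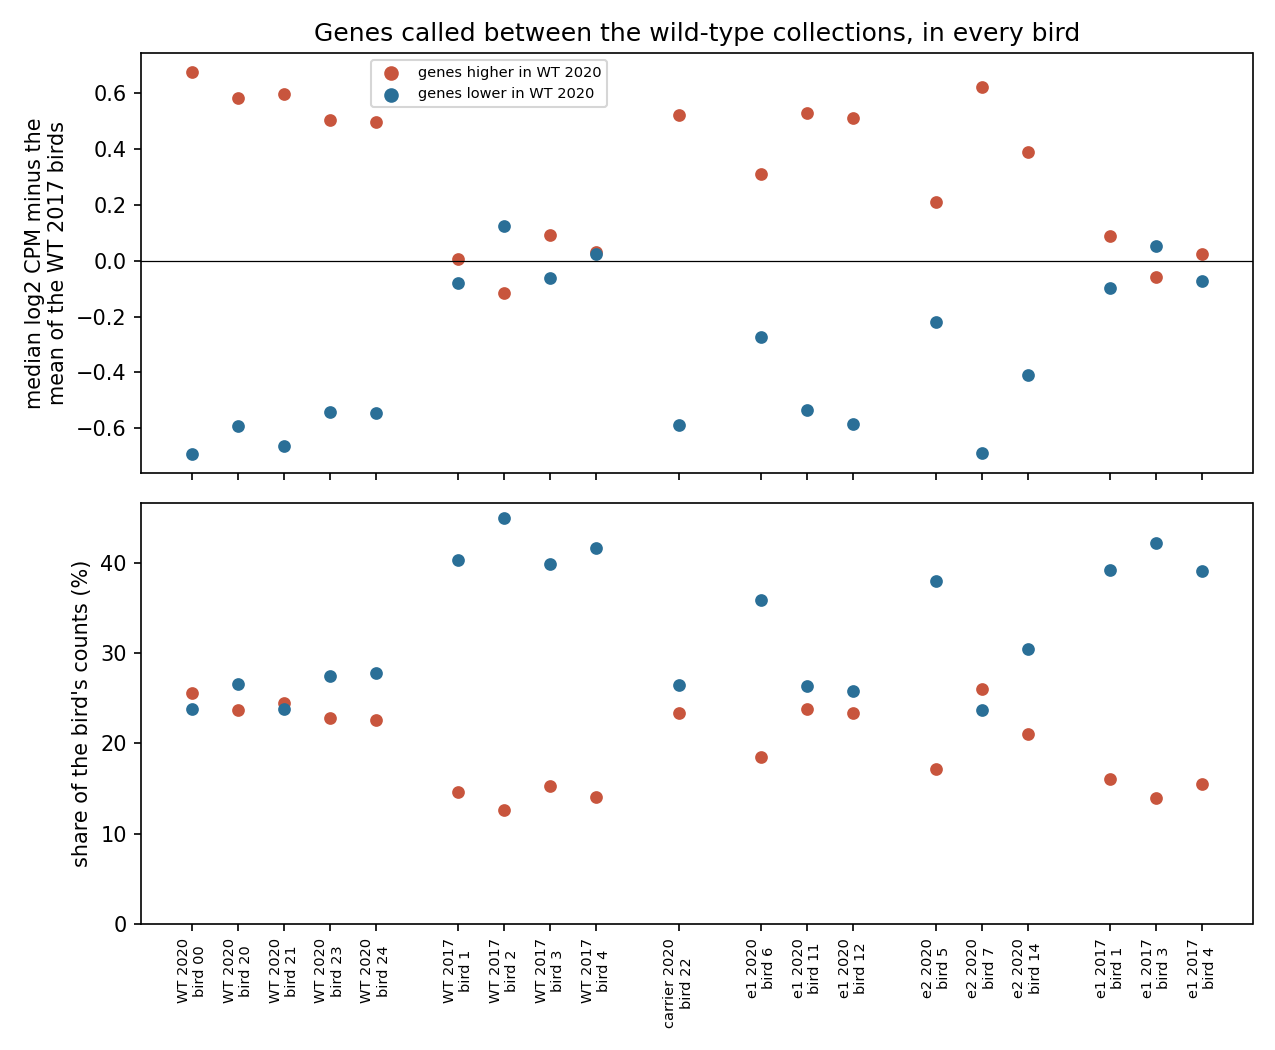
Genes called between the wild-type collections, in each of the 19 birds: above, the median of log2 CPM minus the mean of the 2017 wild-type birds over the 1884 higher (red) and 2103 lower genes (blue); below, the share of the bird's counts that each list takes, in %. By the medians, the carrier, e2 bird 7 and e1 birds 11 and 12 stand at or near wild type of 2020, and e1 bird 6 and e2 birds 5 and 14 stand between the years.

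Some genes nevertheless divided the years in every bird outside the comparison, and fewer did so in all 19 birds. In 690 of the 1884 higher genes (36.6%) the 7 birds of 2020 outside the comparison all lay above the 3 e1 birds of 2017, as they did in 7.75% of all tested genes. In 756 of the 2103 lower genes (35.9%) they all lay below, as in 8.38% of all tested genes. These birds had no part in the choice of the genes. Taking all 19 birds, 417 tested genes (3.32%) were higher in each of the 12 birds of 2020 than in any of the 7 of 2017, and 489 (3.89%) were lower. Of those, 411 higher and 475 lower genes were called in wild type, with median log2 fold changes of 0.72 and -0.68. At least 2-fold changes were shown by 81 higher and 99 lower of them. A gene that divides all 19 birds also divides the wild-type birds, so most of these calls follow from the rule and are no further test. Of the 100 genes with the most reads, 23 were in the lower set and 1 in the higher set. The other abundant genes that fell in wild type overlapped in at least 1 bird.

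The last question was whether e1 birds differ between the collections as wild-type birds do. This comparison shares no bird with the wild-type one. With 3 birds against 3 the test called 196 of 12621 genes (1.55%), 128 higher and 68 lower in 2020 (edgeR), with a median standard error of 0.21 against 0.15 in wild type. Of the 128 higher genes, 125 were tested in wild type and 116 (90.6% of the 128) were called higher there too. Of the 68 lower genes 62 (91.2%) were called lower. Among all genes tested in wild type 15% were called higher and 16.7% lower. The shared genes were 6.16% of the higher and 2.95% of the lower genes of wild type, and 0 genes were called in opposite directions. The e1 count depended on single birds: it was 1161 without e1 bird 6 of 2020, 1 without bird 11 of 2020 or birds 1 or 4 of 2017, and 3 without bird 12 of 2020.

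Below the threshold the direction was largely kept. Of 1876 higher wild-type genes tested in e1, 1830 (97.5%) were higher there, where 50.5% of all genes tested in both comparisons were higher. Of 2102 lower genes 1985 (94.4%) were lower, where 49.5% of all genes were. The medians were smaller in e1, at 0.43 for the higher and -0.41 for the lower genes, against 0.57 and -0.62 in wild type. The lists were chosen on the wild-type values, which enlarges those medians, so the sizes cannot be compared through them. Without e1 bird 6 the e1 medians were 0.49 and -0.52. Then 428 of the higher and 589 of the lower wild-type genes were called in e1, where 528 higher and 633 lower of all 12754 genes were called. Bird 6 was the e1 bird of 2020 that lay least on the 2020 side of these same lists. Leaving it out brings e1 nearer to wild type by construction and is no test. Over the 12431 genes tested in both, the correlation of the wild-type and e1 changes was 0.70 by Pearson and 0.70 by Spearman, as a description across genes, which are no replicates.

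Of the 69 abundant genes lower in wild type, 68 were also lower in e1, near the 94.4% of all lower wild-type genes tested there. Their median was -0.64 in e1 against -1.06 in wild type. Of the 69 genes 0 were called in e1, where only 68 of all 12621 genes were called lower. They took 19.4, 12.2 and 11.7% of the counts in e1 birds 6, 11 and 12 of 2020, and 21.2, 22.3 and 20.6% in e1 birds 1, 3 and 4 of 2017. Bird 6 lay nearer to the birds of 2017 than to the other e1 birds of its own year.

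A306_00002302 rose in e1 by 5.00 ± 0.32 on the log2 scale (SE; edgeR, adjusted p = 0.00110) and A306_00014629 fell by 1.89 ± 0.36 (SE; edgeR, adjusted p = 0.0455). A306_00001292, at 0.62 ± 0.18 (SE; edgeR, adjusted p = 0.101), and A306_00000962, at -0.44 ± 0.39 (SE; edgeR, adjusted p = 0.539), did not pass.

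When the difference between the genotypes was tested itself, 0 of 12932 genes (0%) were called for an interaction of collection and genotype in edgeR. At an unadjusted p under 0.05 there were 581 genes (4.49%), and DESeq2 called 4. The count of 0 became 51 without e1 bird 3 of 2017, and 1 without e1 bird 4 of 2017 or e1 bird 6 of 2020. For A306_00000962 the interaction was -0.58 ± 0.37 (SE; edgeR, adjusted p = 0.938). Over the 4 named genes the standard error of the interaction ran from 0.16 to 0.54. With only 3 against 3 e1 birds, the count of 0 does not show that the genotypes shift alike.

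**Figure D5:**
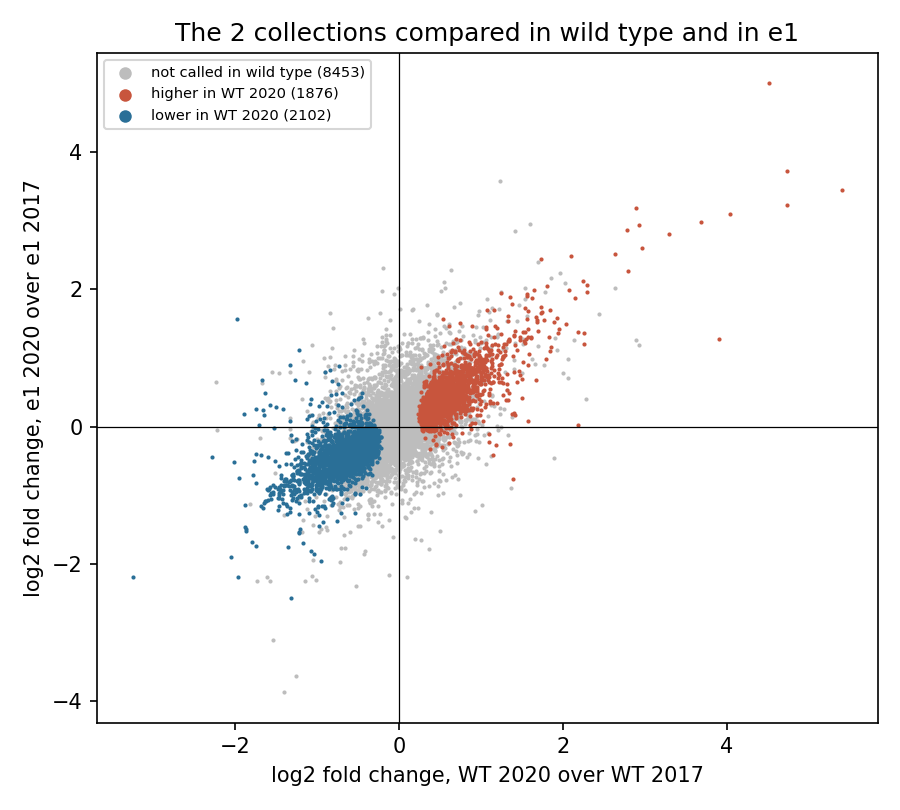
Log2 fold change between the collections in e1 birds (3 of 2020 over 3 of 2017) against that in wild-type birds (5 of 2020 over 4 of 2017), for the 12431 genes tested in both. Red and blue points are genes called higher and lower in wild type; 97.5% of the red points lie above 0 and 94.4% of the blue points below 0 on the e1 axis.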

How the data were processed

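The table that the authors deposited gives raw counts for 15392 genes in 19 birds, 207 of them at 0 throughout, beside a DESeq2 comparison, per the file headers, which was not used here. The submitters' processing notes name DESeq2. How reads were aligned, counted and assigned to strands is not given in the sources used here. Total counts were 13559606 to 23168538 per bird.

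From the counts, genes kept by filterByExpr of edgeR (4.0.16, R 4.3.3) in the birds compared were scaled by TMM and tested across all genes with edgeR's quasi-likelihood test. Standard errors are the fold change divided by the square root of F. Log2 CPM used a prior count of 2. Leading genes were those with an adjusted p under 0.05 and no overlap between groups: per direction, the largest fold if the mean log2 CPM reached 1, and the most reads. The lists of 9 cell and process classes gave no value, as 0 identifiers matched. Alternatives included DESeq2 (1.42.0), other scalings and filters, leaving out each bird, and 2 chosen after seeing the data (equal totals by thinning, no scaling factor). The birds and rules were chosen with earlier results of these data known. The scripts were tested on simulated data. No pair of wild-type birds within a collection agreed within sampling noise.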

Additional observations from a re-analysis of the deposited data

Results flagged for a closer look

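Over 32 checks of single birds within the wild-type groups of 4 and 5 birds, covering library measures, list measures and the 4 named genes, 1 bird stood apart. For A306_00002302, the 2017 bird 4 was at 10.8 CPM, while the other 3 birds of its group were at 6.84 to 7.43 CPM. Chance flags about 1 in 20 groups, and the bird lies far below the lowest 2020 bird at 96.8 CPM.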

How the results depend on the processing

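The count of 3987 genes between the wild-type collections stayed within 1.5 times under 18 of 19 alternatives, 2 of them chosen after seeing the data. It was 529 when a change of at least 2-fold was also required. The share of called genes that were higher was 47.3% with TMM, 48.7% with DESeq2 size factors, 42.5% with upper-quartile scaling and 72.2% without a scaling factor. The e1 count of 196 was 1289 with DESeq2, 949 with the dispersion from all 19 birds and 83 when at least 2-fold was required, and it lay between 1 and 1161 with a bird left out. The interaction count of 0 was 4 with DESeq2 and lay between 0 and 51 with a bird left out. With a wild-type bird left out, the differences of 2020 minus 2017 lay between -9.51 and -8.37 percentage points for the 100 leading genes, -2.02 and -1.84 for the 10 leading genes, 0.104 and 0.137 for the TMM factor and -4329054 and -2020900 for total counts. For the first 3 measures the adjusted p was 0.0571 (exact permutation test) with any 1 bird of 2020 left out. With any 1 bird of 2017 left out it was 0.0268 to 0.0357 (exact permutation test). The groups did not overlap in these 3 measures, so each p before adjustment was the smallest that the fewer groupings allow. The rise of the adjusted p thus follows from the number of birds. For total counts the adjusted p was 0.0268 (exact permutation test) without the 2017 bird 2. It was 0.171 to 0.295 (exact permutation test) with any other 1 wild-type bird left out. The 4 named genes kept their direction under all alternatives run. A306_00001292 was not called with the dispersion from all 19 birds, nor when at least 2-fold was required, and no other named gene lost its call. No paired analysis was possible because the groups compared between the years share no bird numbers. A shift in rare transcripts was less detectable at this depth, with a median standard error of 0.38 log2 units in decile 1 by level.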
